A study of Mus musculus with 5 samples.

Results

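The Nkx2-5 regions of wild-type adult mouse heart were described from chromatin immunoprecipitation followed by sequencing (ChIP-seq), a method that recovers the DNA bound by a protein with an antibody and finds the places where that DNA piles up. The members were all regions of the Nkx2-5 list without those on the mitochondrial genome and the X and Y chromosomes, those starting before 3.1 Mb on a chromosome and those of 400 bp or more. They numbered 6547 of the 6705 regions in the Nkx2-5 list, and of 21703 regions in the 3 lists of the series used here. All positions are on mouse build mm9 and count from 1.

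The series holds 5 libraries of adult heart on an FVB/N background, 1 for each of Nkx2-5, Gata4, p300, Tbx3 and a control. Wild-type hearts served for Nkx2-5, Gata4 and p300. Tbx3 was profiled in TBX3 transgenic hearts, of genotype Myh6-MCM;CAG-CAT-TBX3, and the control was the Tbx3 antibody in Myh6-MCM hearts. The Tbx3 overlaps below are therefore not with a list from wild-type hearts. Myh6-MCM places a tamoxifen-inducible Cre under the promoter of a cardiomyocyte myosin gene, and no treatment or age in weeks is given in the labels. The Nkx2-5 antibody was N-19, for which the labels name 2 lots against 1 library. With 1 library and no replicate, no difference below has a replicate check, and the intervals given are exact Clopper-Pearson 95% intervals that treat regions as independent and cover counting error only. The list gives positions only, without height, score or read number, so the depth and the enrichment behind a region are unknown.

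Nkx2-5 is a homeodomain transcription factor that marks cardiac progenitors and stays on in cardiomyocytes of the adult heart. It binds short DNA elements of the NK2 type and is known to act together with the zinc-finger factor Gata4 and with T-box factors on genes of contraction, conduction and hormone secretion. Tbx3, a T-box repressor, is known for shaping the cardiac conduction system. Whole heart also contains endothelial cells, fibroblasts, smooth muscle cells and leukocytes, and a region list from whole tissue does not show which cells a region came from. The tissue was not checked against cell type markers, because the list pairs no position with a gene and no gene annotation of mm9 was at hand. For the same reason regions are named here by position, and neither the genes they lie in nor their distance from gene starts was analysed.

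Nkx2-5 regions were narrow, and their number fell with width. The median width was 141 bp (95% interval of the median 139 to 143 bp), with quartiles at 117 and 182 bp. Of classes of 10 bp, the narrowest, from 100 bp, was the largest, with 974 regions (14.9% of the list), and 100 bp was the lower limit of the list. At the other end, 1198 regions reached 200 bp (18.3%) and 210 reached 300 bp (3.21%). All members together covered 1033 kb of the autosomes. At the upper limit, the widest members were 394, 397 and 398 bp wide, and the narrowest regions left out by width were 400, 402 and 402 bp wide. The member nearest a chromosome start was chr17:3114814-3114948, and the nearest region left out was chr11:3093334-3093469.

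**Figure D1:**
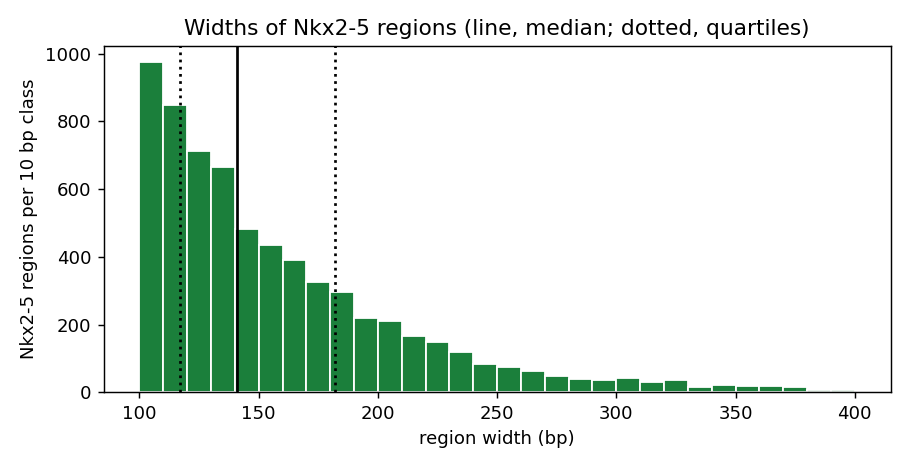
Number of Nkx2-5 regions (vertical axis) in classes of 10 bp of width (horizontal axis, bp), with the median as a solid line and the quartiles as dotted lines. The first class holds 974 regions and the median stands at 141 bp.

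The 10 widest Nkx2-5 members lay on 9 different autosomes. They are the widest below the limit of 400 bp, since 46 autosomal regions at or over it were left out. The first was chr13:55551855-55552252 (398 bp), followed by chr9:36575168-36575564 (397 bp) and chr4:43454956-43455349 (394 bp). These 3 regions had no other Nkx2-5 region within 10 kb, and each overlapped a Tbx3 region. Next came chr16:34352810-34353201 and chr2:156452281-156452672, both 392 bp, then chr1:60665902-60666292 and chr7:51728379-51728769, both 391 bp. The last of the 10 widest were chr12:74882562-74882951 (390 bp), chr4:117820210-117820598 (389 bp) and chr5:122764936-122765323 (388 bp). Of these 10 regions, 7 overlapped a Tbx3 region and 2 (chr1:60665902-60666292 and chr12:74882562-74882951) overlapped a Gata4 region. The region chr4:117820210-117820598 was the 1 in neither list, with its nearest Tbx3 region 48.3 kb away. Among the 10, 6 were single sites and 4 had a neighbouring Nkx2-5 region within 10 kb. Over the whole list, 68.9% of regions were single sites, 34.9% overlapped a Tbx3 region and 8.26% a Gata4 region.

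At a distance of 10 kb most Nkx2-5 regions stood alone, and at 50 kb most had an Nkx2-5 neighbour. The median gap to the next Nkx2-5 region on the same chromosome was 91.6 kb, with quartiles at 20.3 and 324 kb (n = 6528 gaps). A neighbour lay within 1 kb of 646 regions (9.87%, 95% interval 9.16 to 10.6%) and within 10 kb of 2033 (31.1%, 29.9 to 32.2%). Within 50 kb the number was 3844 (58.7%, 57.5 to 59.9%). Within 100 kb it was 4734 (72.3%, 71.2 to 73.4%), and within 1000 kb it was 6426 (98.2%, 97.8 to 98.5%). Being a neighbour is mutual, so intervals of neighbour shares, here and below, can be too narrow. On a log scale the gaps had 1 broad maximum near 100 kb and no second one at short distance. Classes of a log scale cover more bases at longer distance. Counted per base of gap length, gaps were most frequent at the shortest distances. Gaps of 200 bp or less numbered 121 and those over 200 and up to 1000 bp numbered 217, beside a mean gap of 362 kb. The shortest gap was 52 bp.

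**Figure D2:**
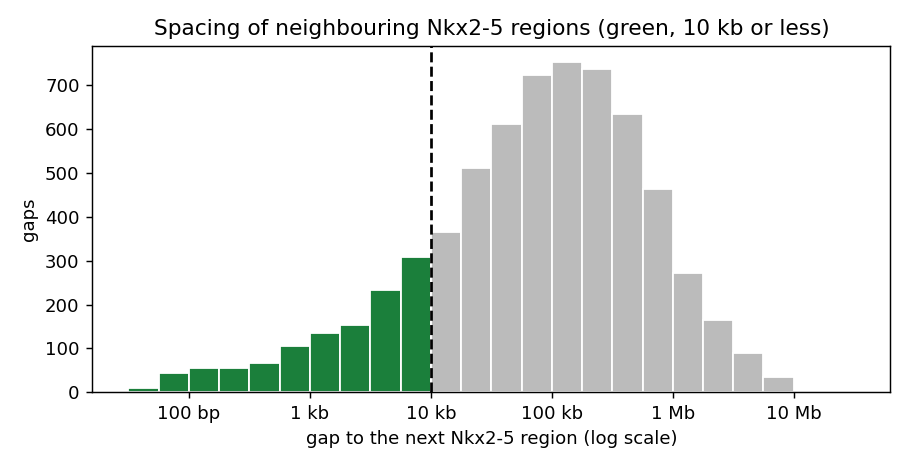
Number of gaps (vertical axis) by the length of the gap between neighbouring Nkx2-5 regions (horizontal axis, log scale), with gaps of 10 kb or less in green left of the dashed line. On this scale the distribution has 1 broad maximum, and its median is 91.6 kb.

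Joining regions across gaps of 10 kb or less gave 5382 places, of which 4514 were single regions and 868 were groups of 2 or more. Of the groups, 668 held 2 regions, 144 held 3, 32 held 4 and 24 held 5 or more. Gaps inside groups had a median of 2.72 kb, with quartiles at 0.781 and 5.83 kb. Groups of 5 or more regions spanned a median of 17.2 kb and at most 34.2 kb. Grouped regions were slightly wider than single ones. The median width was 138 bp (137 to 140 bp) for single regions, 145 bp (143 to 149 bp) in groups of 2, 151 bp (147 to 159 bp) in groups of 3 and 155 bp (143 to 179 bp) in groups of 5 or more.

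The group with the most Nkx2-5 regions, 9, spanned 22.5 kb at chr2:167670113-167692591. Its members were 301, 102, 189, 123, 137, 142, 308, 153 and 191 bp wide in order of position. The widest were chr2:167670113-167670413 at its left end and chr2:167686037-167686344. Of the 9 regions, 6 overlapped a Tbx3 region, and 1 of these 6, chr2:167677020-167677142, also overlapped a Gata4 region. The longest gap between neighbours in the group was 6.65 kb.

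Next were 3 groups of 7 regions. At chr5:122958873-122977183 (18.3 kb) the regions formed a left set of 3, a middle set of 3 and a lone region at the right end. In the left set, chr5:122959709-122959913 and chr5:122960846-122961126 overlapped Tbx3 and not Gata4. In the middle set, chr5:122970934-122971066 and chr5:122971220-122971369 overlapped Gata4, at 1 and the same Gata4 region, and not Tbx3. Another Gata4 region lay in the left set without overlapping an Nkx2-5 region, so this split rests on the 1 bp rule for overlap. At chr1:74045518-74064659 (19.1 kb), 4 of the 7 regions overlapped Tbx3 and none overlapped Gata4; its widest region was chr1:74055100-74055446, 347 bp. At chr11:98629924-98650445 (20.5 kb), 5 of the 7 overlapped Tbx3, all 5 lying between the outermost regions, and none overlapped Gata4. Of these 5, chr11:98635124-98635226 and chr11:98635326-98635504 overlapped 1 and the same Tbx3 region.

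The other 6 of the 10 largest groups held 6 regions each. At chr4:141197224-141207458 the group was the most compact of the 10, with 6 regions in 10.2 kb, of which 3 overlapped Tbx3. The 2 leftmost, 70 bp apart, overlapped 1 and the same Tbx3 region. The third, chr4:141204206-141204469, overlapped both Tbx3 and Gata4. At chr9:119378821-119392804 (14.0 kb), 3 regions overlapped Tbx3 and the leftmost, chr9:119378821-119379115, also overlapped Gata4. This was the 1 group of the 10 with a region left out for its width nearby, chr9:119388307-119388742 of 436 bp, which lay inside the span. On chromosome 5, the groups at chr5:30876832-30896684 and chr5:23835562-23857767 had 2 and 3 regions in Tbx3 and none in Gata4. The group at chr4:45480321-45502834 (22.5 kb) had 4 regions in Tbx3 and 2 in Gata4, of which chr4:45487896-45488016 was in both lists. On chromosome 18, a group spread over 33.4 kb had 3 regions in Tbx3, 2 of which were also in Gata4. A further group of 6 with a longer span, at chr7:20334936-20369177, was not among the 10 by the tie rule; only 1 of its 6 regions overlapped Tbx3 and none overlapped Gata4.

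**Figure D3:**
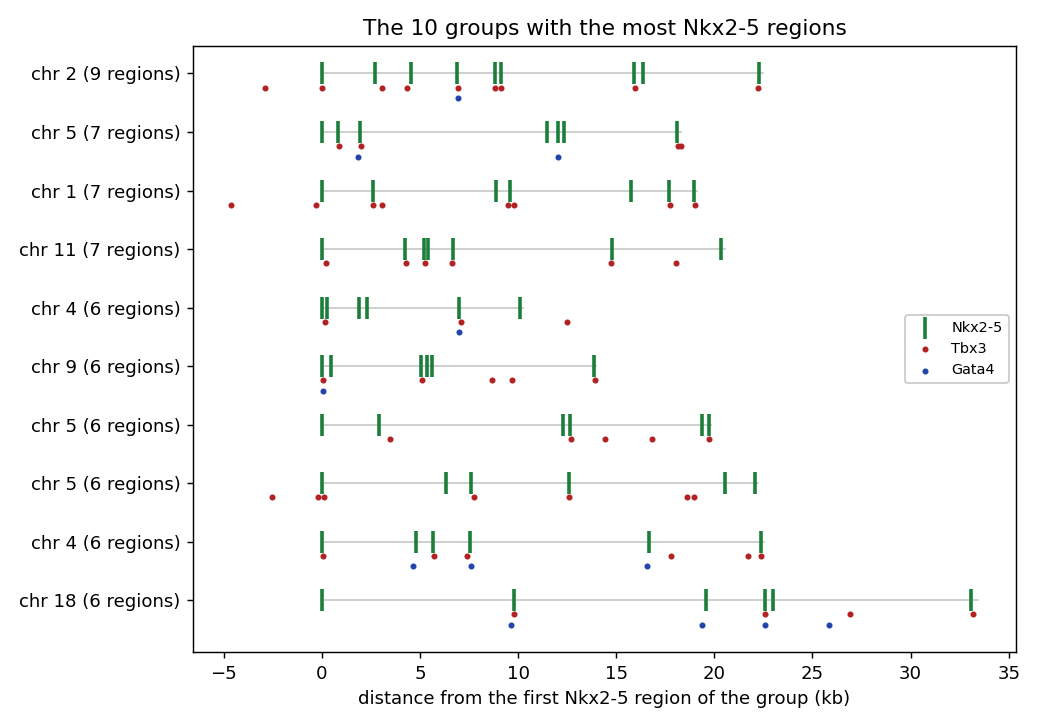
The 10 groups with the most Nkx2-5 regions, each drawn as a line from its first region (horizontal axis, kb), with Nkx2-5 regions as green bars and the starts of Tbx3 (red) and Gata4 (blue) regions as dots beneath. The chromosome 2 group holds 9 Nkx2-5 regions in 22.5 kb, and the chromosome 5 group of 7 holds Tbx3 in its left set and at its right end and Gata4 in its left and middle sets.

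The densest packing, among groups of 4 or more, was at chr1:195142292-195143788, where 4 regions of 183 to 219 bp lay within 1.497 kb, the closest 60 bp apart. Of these, 2 overlapped Tbx3 and 1 overlapped Gata4. The next was chr5:123584663-123586725, with 4 regions in 2.06 kb, all 4 of them in the Tbx3 list and 1 in the Gata4 list. It was the largest of 14 groups whose members all overlapped Tbx3, out of 200 groups of 3 or more (7%). The third was chr14:55585463-55589140, with 4 regions in 3.68 kb and 2 in Tbx3, and the fourth chr19:5845481-5850369, with 5 regions in 4.89 kb and 2 in Tbx3. The rule that ranked groups by regions per kb was chosen after the values were seen.

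Groups also occurred away from both other lists. Of the 868 groups, 275 (31.7%) held no region that overlapped Tbx3 or Gata4, against 2782 (61.6%) of the 4514 single regions. A larger group has more members that could overlap, so these shares are not a comparison of like places. The largest such groups held 4 regions, and there were 3 of them: chr4:136291715-136298943 (7.23 kb), chr6:90558240-90569169 (10.9 kb) and chr2:180119915-180134866 (15.0 kb). The first and the second held no Tbx3 or Gata4 region anywhere in their span, and the third held 1 Tbx3 region between its members. Median widths in these 3 groups were 143, 143.5 and 123 bp. The next was a compact group of 3 in 1.48 kb at chr4:134146298-134147779. All 24 groups of 5 or more held at least 1 region in the Tbx3 or the Gata4 list.

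By region rather than by group, single and grouped regions differed less. Tbx3 was overlapped by 1498 of the single regions (33.2%, 31.8 to 34.6%) and by 789 of the 2033 grouped ones (38.8%, 36.7 to 41.0%). Gata4 was overlapped by 337 of the single regions (7.47%, 6.72 to 8.27%) and by 204 of the grouped ones (10.03%, 8.76 to 11.4%). By group size the Tbx3 share was 36.1% in groups of 2 and 41.9% in groups of 3. In groups of 4 it was 50% (41.0 to 59.0%, n = 128 regions in 32 groups). In groups of 5 or more it was 45.3% (36.7 to 54.0%, n = 137 regions in 24 groups). The Gata4 share was 10.03%, 10.9%, 6.25% and 10.9% in the same order. Regions of a group can overlap the same region of another list, so the intervals by group size can be too narrow.

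Nkx2-5 regions were present on all 19 autosomes, and chromosome 11 was the most densely marked. It carried 502 regions, or 42.3 per 10 Mb of the span held by the 3 lists (95% interval 38.8 to 46.1). Chromosome 19 followed with 35.5 (30.9 to 40.7) and chromosome 17 with 34.0 (30.4 to 37.9), and the interval of chromosome 19 overlapped those of both chromosome 11 and chromosome 17. Chromosome 3 was the lowest with 19.998 (17.9 to 22.3), near chromosome 6 with 20.4 (18.2 to 22.8) and chromosome 14 with 20.8 (18.3 to 23.5). The density of regions followed the density of protein-coding genes across chromosomes (Pearson r = 0.83, Spearman rho = 0.85, 19 autosomes, genes counted per chromosome in the RefSeq table of GRCm38.p6). Per 100 protein-coding genes the order changed: chromosome 18 was highest with 43.2 and chromosome 7 lowest with 23.1, while chromosome 11, with 31.2, was near the median of 31.4.

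Grouping differed between chromosomes that were alike in density. On chromosome 4, 42.9% of regions had a neighbour within 10 kb (38.3 to 47.6%), the highest share, and the median gap was the shortest, at 63.6 kb. Chromosome 5, with 29.7 regions per 10 Mb like chromosome 4, had 30.9% (26.6 to 35.5%). Chromosome 6 had the lowest share, 21.5% (17.0 to 26.6%). Being a neighbour is mutual, so these intervals can be too narrow, and the difference between chromosomes was not tested. Chromosome 3, the least dense, had the highest share of regions in the Gata4 list, 14.8% (11.01 to 19.3%), against a median of 8.13% over autosomes. Its interval overlapped that of chromosome 19, the next highest with 12.6% (8.41 to 17.9%). Chromosome 3 carried 122 Gata4 regions beside 304 Nkx2-5 regions. Chromosome 14, with the lowest share (5.02%), carried 42 beside 239. Whether the share followed these numbers was not tested. Median width hardly varied, from 137 bp on chromosome 16 to 145.5 bp on chromosome 15.

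**Figure D4:**
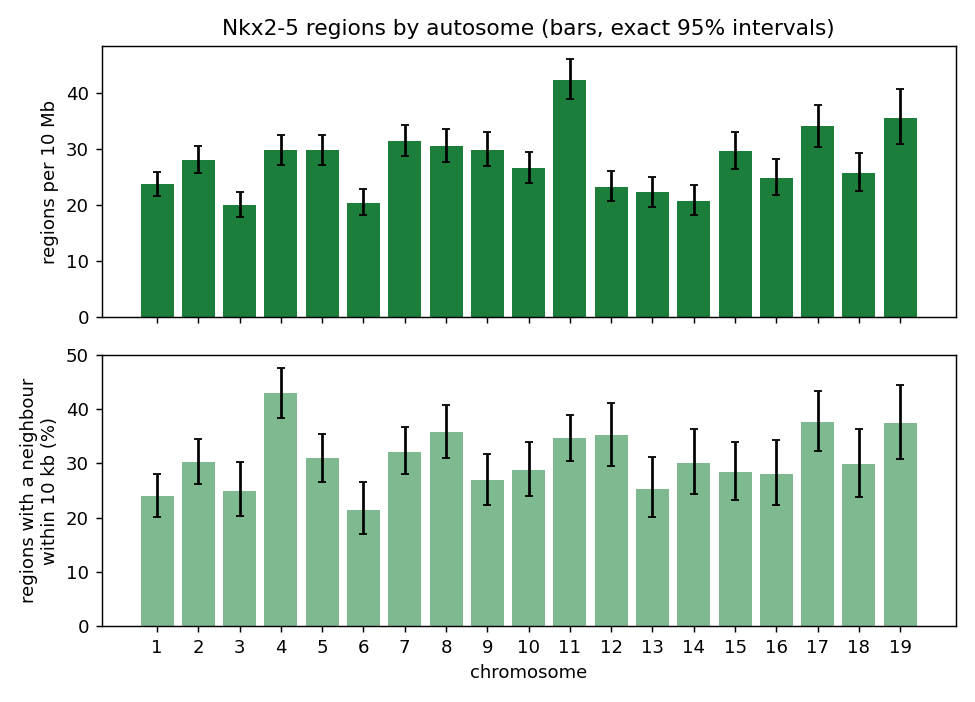
Nkx2-5 regions per 10 Mb (upper panel) and share of regions with another Nkx2-5 region within 10 kb (lower panel, %) for each autosome, with exact 95% intervals as error bars. Chromosome 11 is highest in density at 42.3 per 10 Mb, and chromosome 4 in grouping at 42.9%.

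Along the chromosomes, Nkx2-5 regions were more frequent toward the end with the higher coordinates. With each chromosome cut into 10 equal parts up to the last region of any list, the first part held 296 regions (4.52%, 4.03 to 5.05%), which the limit on chromosome starts lowers. The second to the sixth part held between 8.75% and 9.65% each. The ninth held 834 (12.7%, 11.9 to 13.6%) and the last held 995 (15.2%, 14.3 to 16.1%).

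At the scale of 1 Mb, regions were concentrated in a small part of the genome. Of 2408 windows of 1 Mb, 846 (35.1%) held no Nkx2-5 region and 122 (5.07%) held 10 or more. These 122 windows held 1586 regions, 24.2% of the list, and the 338 fullest windows (14.0%) were enough to hold 50% of it. The mean per window was 2.72 with a variance of 12.1. The fullest window was chr10:80000001-81000000 with 25 regions, followed by chr1:74000001-75000000 with 23. The windows chr11:98000001-99000000 and chr2:167000001-168000000 held 22 each, and these last 3 windows contain 3 of the largest groups described above. The window chr10:80000001-81000000 contains none of the 10 largest groups, so its regions were spread in smaller groups and single sites.

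The windows rich in Nkx2-5 regions were also rich in Tbx3 regions. Across the 2408 windows the numbers of Nkx2-5 and Tbx3 regions had a Pearson r of 0.85 and a Spearman rho of 0.83, and those of Nkx2-5 and Gata4 regions 0.54 and 0.57. All 3 lists share the tissue, though not the genotype, and the gene density of each window, so these values only describe the lists. The Tbx3 list held 13011 regions and the Gata4 list 1691. Lower counts per window also lower a correlation, so the values for Tbx3 and Gata4 cannot be ranked against each other. Windows without an Nkx2-5 region held a mean of 0.579 Tbx3 and 0.115 Gata4 regions, and windows with 10 or more held 24.9 and 2.38. The window chr11:98000001-99000000, with 22 Nkx2-5 and 35 Tbx3 regions, held no Gata4 region, whereas chr10:80000001-81000000 held 57 Tbx3 and 5 Gata4 regions.

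Long stretches carried no Nkx2-5 region. The longest ran for 19.4 Mb on chromosome 14, from 80169708 to 99589509, and held 3 Tbx3 and 2 Gata4 regions. A stretch of 11.4 Mb on chromosome 1, from 108897334 to 120256071, held 1 Tbx3 region and no Gata4 region. The next, of 9.80 Mb on chromosome 3 from 69198211 to 78994421, held 2 of each. The fourth, of 9.39 Mb on chromosome 1 from 24685418 to 34078495, held 8 Tbx3 regions and no Gata4 region. The fifth, of 8.87 Mb on chromosome 14 from 106576410 to 115441447, held 1 Tbx3 and 2 Gata4 regions. The most isolated Nkx2-5 region with neighbours on both sides was chr7:64955874-64956056, 6.09 Mb from the next. Then came chr15:19172813-19172937, at 5.07 Mb, and chr2:43672823-43673004, at 4.81 Mb. None of these 3 regions overlapped Tbx3 or Gata4, and the nearest Tbx3 region lay 1100 kb, 6195 kb and 718 kb away. They were picked by isolation after the values were seen.

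As a reference, the Tbx3 and Gata4 lists were reduced by the same limits, to 13011 and 1691 regions. By at least 1 bp, 2287 Nkx2-5 regions (34.9%, 33.8 to 36.1%) overlapped a Tbx3 region, which touched 17.7% of the Tbx3 list. For Gata4 the number was 541 Nkx2-5 regions (8.26%, 7.61 to 8.96%), or 32.0% of the Gata4 regions. Neither list was overlapped by 3899 Nkx2-5 regions (59.6%, 58.4 to 60.7%), and both by 180 (2.75%, 2.37 to 3.17%). Where an Nkx2-5 region did not overlap Tbx3, the nearest Tbx3 region lay at a median of 20.2 kb, within 1 kb for 553 regions and beyond 100 kb for 891 (20.9%). Where it did not overlap Gata4, the nearest Gata4 region lay at a median of 242 kb, within 1 kb for 143 regions and beyond 100 kb for 4042 (67.3%). The Tbx3 list differs from the Nkx2-5 list in genotype (TBX3 transgenic) as well as factor. By its labels the Gata4 list differs in factor only. What unknown depths add cannot be told apart from either.

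Wider Nkx2-5 regions were found more often in groups and in the other lists. With the list cut into 10 equal classes by width, 24.6% of the narrowest class (21.3 to 28.1%) and 41.4% of the widest (37.6 to 45.3%) had an Nkx2-5 neighbour within 10 kb. The share overlapping Tbx3 went from 23.2% (20.02 to 26.6%) to 55.4% (51.4 to 59.2%). The share overlapping Gata4 was between 4.12% and 6.72% in the first 7 classes, and then 12.1%, 14.5% and 17.3% in the last 3. The Gata4 share thus was higher only in the classes from 172 bp up, while the Tbx3 share climbed over most of the range. A wider region has more room to overlap. With regions counted as shared when their centres lay within 500 bp, which does not depend on width, the Tbx3 share went from 29.8% to 58.6% and the Gata4 share from 5.50% to 17.7%.

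**Figure D5:**
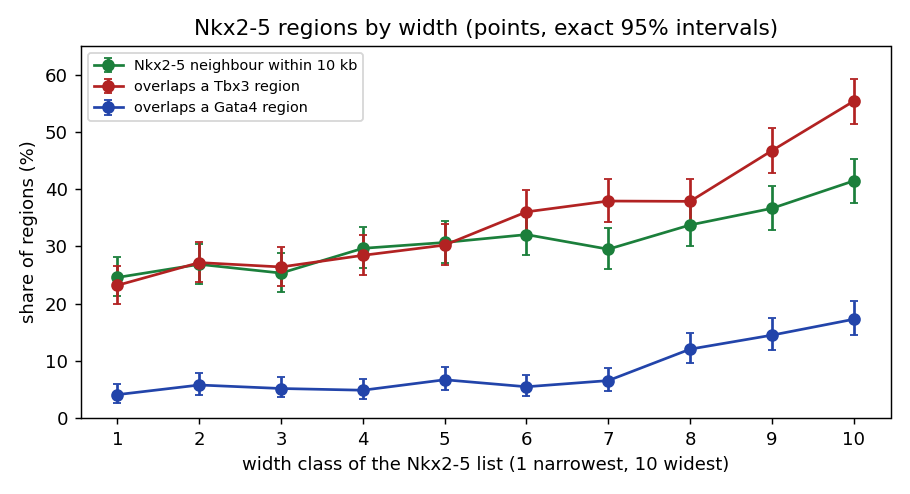
Share of Nkx2-5 regions (vertical axis, %) with an Nkx2-5 neighbour within 10 kb (green), overlapping a Tbx3 region (red) or overlapping a Gata4 region (blue), by width class of the list from the narrowest to the widest (horizontal axis), with exact 95% intervals. Tbx3 overlap goes from 23.2% to 55.4%, and Gata4 overlap stays at or below 6.72% in the first 7 classes and reaches 17.3% in the widest.

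Regions overlapping both other lists had the largest median width. The classes rest on the 1 bp rule, under which a wider region has more room to overlap. Counting by centres was not done for them. Their median width was 190 bp (172 to 204 bp), against 172 bp (161 to 178 bp) with Gata4 alone, 155 bp (151 to 157 bp) with Tbx3 alone and 133 bp (132 to 135 bp) with neither. The intervals of the first and second class overlapped. The share of regions with an Nkx2-5 neighbour within 10 kb was 42.8% (35.4 to 50.4%) with both and 35.2% (30.3 to 40.4%) with Gata4 alone. It was 33.8% (31.8 to 35.9%) with Tbx3 alone and 28.6% (27.2 to 30.1%) with neither. For this share, the intervals with both, with Gata4 alone and with Tbx3 alone overlapped.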

How the data were processed

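ChIP-seq regions of 1 Nkx2-5 library were analysed, with the Tbx3 and Gata4 lists (1 library each) as reference, and the other 2 libraries were not used here. The lists used here, as the authors deposited them, hold positions in bp and no other value. Per the submitters' processing notes, positions are on mm9. Aligner, peak caller, threshold and depth were not given in the sources used here. Starts were read as counted from 0. Regions were joined across gaps of at most 10 kb, and overlaps were counted from 1 bp, with Python 3.11.15, pandas 2.3.3, numpy 2.4.6 and scipy 1.17.1. These counts were tested on simulated data and recovered in 20 of 20 lists of 1200 regions. The simulated lists held single regions and close pairs on 1 chromosome, so larger groups and gaps near 10 kb were not checked. Named were the 10 groups with the most regions (ties by shorter span) and the 10 widest regions. The limits on members and the named sets were chosen with earlier results of these data known. Gene starts, gene lists and motifs had been planned for an mm9 annotation and genome and were not run, since the only gene table at hand describes GRCm38.p6. It served only to count genes per chromosome. No position was converted between builds. No test was made, since there is 1 library.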

Additional observations from a re-analysis of the deposited data

Results flagged for a closer look

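Regions of the Nkx2-5 list outside the members were set aside by the limits on chromosome, start and width, and were used only in the alternatives that took all regions of the files. They were 36 regions on the X chromosome, 32 on the Y chromosome and 18 on the mitochondrial genome. Each number was above the limit of 3 used for flagging, which is not a test of binding there. A further 26 regions lay before 3.1 Mb on an autosome, of which 14 were on chromosome 11 and 10 on chromosome 9. Another 46 autosomal regions were 400 bp or wider, 9 of them on chromosome 17, and 31 of the 46 had a member within 10 kb.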

How the results depend on the processing

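Of 15 alternatives, 4 stayed within the 95% interval of the reported value, and these were the ones that restored all regions of the files. The share of regions with an Nkx2-5 neighbour was 14.3% with gaps of 2 kb, 22.4% with 5 kb, 58.7% with 50 kb, 22.5% in the wider 50% of the list and 24.2% once regions closer than 1 kb were joined. The share overlapping Tbx3 was 31.1% with an overlap of 50% of the shorter region, 39.7% with centres within 500 bp and 28.3% in the wider 50% of each list. For Gata4 these were 7.12%, 9.47% and 6.93%. The wider 50% leaves fewer regions to meet. Groups therefore depend on the gap chosen. Alternatives on gene starts, genes and motifs were not run. No replicate could be left out with 1 library, and without read numbers the depth behind a region is unknown.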
